A study of Mus musculus with 8 samples.

Results

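The genes described are 7 subunits of the voltage-gated sodium channel, chosen by name from the expression table of 46955 genes: the pore-forming subunits Scn1a, Scn3a, Scn8a and Scn9a, and the auxiliary beta subunits Scn2b, Scn3b and Scn4b. All 7 are in the table, and 4 of them (Scn3a, Scn8a, Scn9a and Scn3b) reached the minimum for testing, 1 RPKM in at least 2 of the 8 libraries. RPKM is the number of reads on a gene's exons scaled by their length and by the library's total; it allows levels of different genes to be set side by side.

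RNA was sequenced from 3 populations of islet cells of adult mice, sorted by fluorescence: transdifferentiated cells (2 libraries, 1 from male and 1 from female mice), alpha cells (3 libraries, 2 male and 1 female) and beta cells (3 libraries, 1 male and 2 female). Per the labels, the islets of all 3 populations came from animals carrying Ins1-H2b-mCherry, a red nuclear reporter under the promoter of an insulin gene, together with Gcg-cre, a recombinase under the glucagon promoter, and a floxed YFP allele that the recombinase switches on for good. Beta cells were taken by the red reporter, alpha cells by YFP, and transdifferentiated cells carried both, that is, an active insulin reporter in a cell whose lineage had once expressed the recombinase. Each library pools islets of 10 to 12 animals of 1 sex, which were cultured overnight before sorting. The design text also speaks of pools of bitransgenic females, without saying which libraries those would be. Beta replicates 1 and 2 share a number in their titles, and so do alpha replicates 1 and 2. Nothing in the labels says whether libraries that share a number are separate pools. The spread between libraries may thus be one between pools or between preparations of the same pool.

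Voltage-gated sodium channels open when a cell depolarizes and carry the sodium current of the rising phase of an action potential; they then inactivate within a short time. One pore subunit forms the channel and sets its voltage range, and the beta subunits, single-pass proteins with an immunoglobulin-like outer domain, change its gating and its amount at the surface. Islet endocrine cells are electrically excitable, and in mice sodium current adds to the spikes that drive glucagon release from alpha cells. In mouse beta cells much of the sodium current is known to be inactivated at the resting potential. Scn9a is best known from pain-sensing neurons, Scn8a from the nodes of myelinated axons, Scn3a from the embryonic brain and Scn1a from inhibitory neurons.

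Short stretches of the coding sequence show where the abundant pore subunits are alike. They come from the first pore loop, in exon 9 of each gene, with the codon in capitals that decides how well tetrodotoxin, the pufferfish toxin, blocks the channel. All are 5′ to 3′ on the coding strand, read from GENCODE M21 transcripts. A tyrosine or phenylalanine there gives a sensitive channel, and a cysteine or serine a resistant one.
Scn3a: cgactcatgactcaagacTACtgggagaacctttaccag
Scn8a: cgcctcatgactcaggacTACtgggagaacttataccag
Scn9a: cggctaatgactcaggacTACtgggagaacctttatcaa
The codon was TAC, tyrosine, in Scn3a (chr2:65521795-65521833, GRCm38), Scn8a (chr15:100971620-100971658) and Scn9a (chr2:66548983-66549021), and of these 39 bases 4 differed from Scn3a in Scn8a and 5 in Scn9a. Scn10a and Scn11a, genes of resistant channels, have TCC (serine) there and had at most 2 reads in any library.

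The 3 pore genes on chromosome 2 lie in 1 cluster on the minus strand, with Scn3a at 65457118 to 65567627, Scn1a at 66270778 to 66440840 and Scn9a at 66480080 to 66634962 (GRCm38, GENCODE M21). Scn1a and Scn9a are 39.2 kb apart, and Scn3a lies 703 kb from Scn1a. Scn8a is on chromosome 15 (100869858 to 101045938, plus strand). The beta subunit genes are all on the plus strand of chromosome 9, with Scn3b at 40269217 to 40291618 and Scn2b (45117782 to 45130070) 8.32 kb from Scn4b (45138395 to 45154152). Close relatives can share reads: of all stretches of 50 bases in the transcripts, 6.49% of those of Scn3a, 4.04% of Scn9a, 4.03% of Scn1a and 0.0374% of Scn8a occur also in another Scn gene, and none of Scn3b or Scn4b do. The only overlapping gene was Gm13629, antisense to 180 bases of Scn9a, at no more than 0.324 RPKM, and the library kit does not mark strand.

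Depth was uneven, and it bears on every value of the transdifferentiated cells. Whole reads recovered from the steps of the RPKM values came to totals of 1244227 and 2167332 for the transdifferentiated libraries, 12911871 to 14094412 for the alpha libraries and 14336649 to 21395280 for the beta libraries. The sorted groups carried their own defining markers. The summed RPKM of 6 alpha markers was 20181 to 20272 in transdifferentiated cells, 175655 to 204035 in alpha cells and 620 to 1958 in beta cells. The summed RPKM of 8 beta markers was 139990 to 147545 in transdifferentiated cells, 2492 to 3188 in alpha cells and 186222 to 242548 in beta cells.

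Scn3a was the tested pore subunit with the widest difference between alpha and beta cells. It was at 5.03 and 3.96 RPKM in the transdifferentiated libraries (78 and 107 reads), at 4.79, 6.41 and 7.33 RPKM in the alpha libraries and at 0.865, 2.30 and 1.44 RPKM in the beta libraries. Both transdifferentiated libraries lay above every beta library, 1 of them lay within the alpha range and the other below it, and alpha and beta libraries did not overlap. The means were 4.5 ± 0.756 RPKM in transdifferentiated cells (SD, n = 2), 6.18 ± 1.29 RPKM in alpha cells and 1.53 ± 0.722 RPKM in beta cells (SD, n = 3 each). Scn3a was higher in alpha than in beta cells by 1.78 on the log2(RPKM + 0.5) scale (SE 0.30, limma adjusted p = 0.00309), and it stayed so in all 19 alternative analyses. In transdifferentiated cells it was higher than in beta cells by 1.36 (SE 0.32, adjusted p = 0.0387). That call was lost in 11 of 19 alternatives, among them a fit that weights each library by its depth (limma voom, log2 fold change 1.61, adjusted p = 0.0864) and 7 of the 8 fits that left out 1 library (all but the one without beta replicate 2), with adjusted p-values over all alternatives of 0.00736 to 0.149. The difference of transdifferentiated from alpha cells was -0.42 (95% interval -1.17 to 0.34, adjusted p = 0.368), and 0.059 with the 4 sets of 2 libraries that share sex and a title letter, b or none, as a block, an alternative chosen after seeing the data. In pooled sorted cells, fewer cells that make a transcript and less transcript per cell cannot be told apart.

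Scn8a ran in the same order with a smaller span. Its level was 4.18 and 3.72 RPKM in transdifferentiated cells, 2.82, 4.43 and 5.07 RPKM in alpha cells and 2.09, 2.67 and 1.99 RPKM in beta cells. Every transdifferentiated and every alpha library lay above every beta library, and the transdifferentiated values lay inside the alpha range. Alpha cells were higher than beta cells by 0.79 (SE 0.21, adjusted p = 0.0213), a call lost in 5 of 19 alternatives: with no filter on low values (adjusted p = 0.0542) and without beta replicate 1 (0.0609), beta replicate 3 (0.0986), alpha replicate 2 (0.0626) or alpha replicate 3 (0.164). The difference of transdifferentiated from beta cells was 0.73 (95% interval 0.20 to 1.27) and did not pass (adjusted p = 0.0768), while with a term for the letter b that some titles carry it was 0.99 and passed (adjusted p = 0.0279), and with the sets of sex and letter as a block it was 0.98 and passed (adjusted p = 0.0379). Against alpha cells the difference was -0.05 (95% interval -0.59 to 0.48, adjusted p = 0.890), and its sign differed among the alternatives.

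Promoters of 5 of the 7 genes were matched by symbol in the RefSeq table, and Scn8a is the 1 called member among them. The table holds 2 starts for it, each printed from 250 bases before to 50 bases after the start (GRCm38.p6, plus strand). Capitals mark matches to TGCTGA, the half-site of MAF factors, to TAATTA, a homeodomain core, or to GGGCGG, the GC box, on either strand.
Scn8a start 1, chr15:100870395-100870694: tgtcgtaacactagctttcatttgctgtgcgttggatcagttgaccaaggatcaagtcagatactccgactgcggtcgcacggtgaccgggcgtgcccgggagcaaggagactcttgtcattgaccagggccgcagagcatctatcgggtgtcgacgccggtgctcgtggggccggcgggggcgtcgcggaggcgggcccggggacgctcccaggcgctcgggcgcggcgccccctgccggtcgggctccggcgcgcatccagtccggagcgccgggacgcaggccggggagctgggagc
Scn8a start 2, chr15:100936021-100936320: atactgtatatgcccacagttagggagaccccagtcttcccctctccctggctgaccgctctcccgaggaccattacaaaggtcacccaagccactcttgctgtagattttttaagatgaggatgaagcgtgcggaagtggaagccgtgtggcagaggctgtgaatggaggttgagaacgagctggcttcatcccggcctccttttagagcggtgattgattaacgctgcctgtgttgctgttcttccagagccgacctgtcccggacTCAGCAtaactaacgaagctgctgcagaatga
The first start held 38 CpG dinucleotides and the second 12, against a median of 7 over 32851 promoters, and 1 match, a MAF half-site, stood in the second. The half-site occurred in 19.5% of all promoters, the homeodomain core in 5.29% and the GC box in 35.7%. The promoter entries of Scn1a, Scn9a, Scn2b and Scn4b held none of the 3 motifs. The table of values does not tell from which start the transcripts came.

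Scn9a had the highest mean level of the 7 genes over all 8 libraries, although Scn3a was higher in alpha cells, and no difference in Scn9a between alpha and beta cells was called. It was at 6.10 and 5.63 RPKM in transdifferentiated cells, 3.03, 4.13 and 5.49 RPKM in alpha cells and 2.74, 6.60 and 3.52 RPKM in beta cells. Both transdifferentiated libraries lay above every alpha library, while the beta libraries spanned the whole alpha range and beta replicate 2 was above both transdifferentiated libraries. No difference passed in the fit with group and sex: it was 0.54 (95% interval -0.25 to 1.33, adjusted p = 0.309) for transdifferentiated against beta cells, 0.42 (-0.37 to 1.21, adjusted p = 0.386) for transdifferentiated against alpha cells and 0.12 (-0.61 to 0.85, adjusted p = 0.777) for alpha against beta cells. With the sets of sex and letter as a block, transdifferentiated cells were higher than beta cells by 0.91 (adjusted p = 0.0280) and higher than alpha cells by 0.92 (adjusted p = 0.0176), and the adjusted p-values over the alternatives ran from there to 0.684 and 0.851. Among the libraries without the letter, transdifferentiated replicate 1 stood at 6.10 RPKM beside 3.03 RPKM in the male alpha library, and replicate 2 at 5.63 RPKM beside 2.74 RPKM in the female beta library. The genes whose log2 level followed that of Scn9a most closely over the 8 libraries were Cntln (Pearson r 0.952), Phf20l1 (0.952), Zc3h12a (0.949), Fsd1l (0.940) and Gm25483 (0.940); all libraries of a group share their cells, and depth differs between groups.

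Scn1a was close to the limit of detection. It had 0 and 0 reads in transdifferentiated cells, 6, 3 and 15 reads in alpha cells (0.0417, 0.02 and 0.0955 RPKM) and 1, 0 and 0 reads in beta cells. Summed over libraries, the rate was 32.3 times higher in alpha than in beta cells (exact 95% interval 5.26 to 1328, counting error only). At the alpha rate, 2.03 reads would have been found in the transdifferentiated libraries, so 0 reads there, which allow up to 0.216 and 0.124 RPKM (3 reads), do not show a difference from alpha cells.

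**Figure D1:**
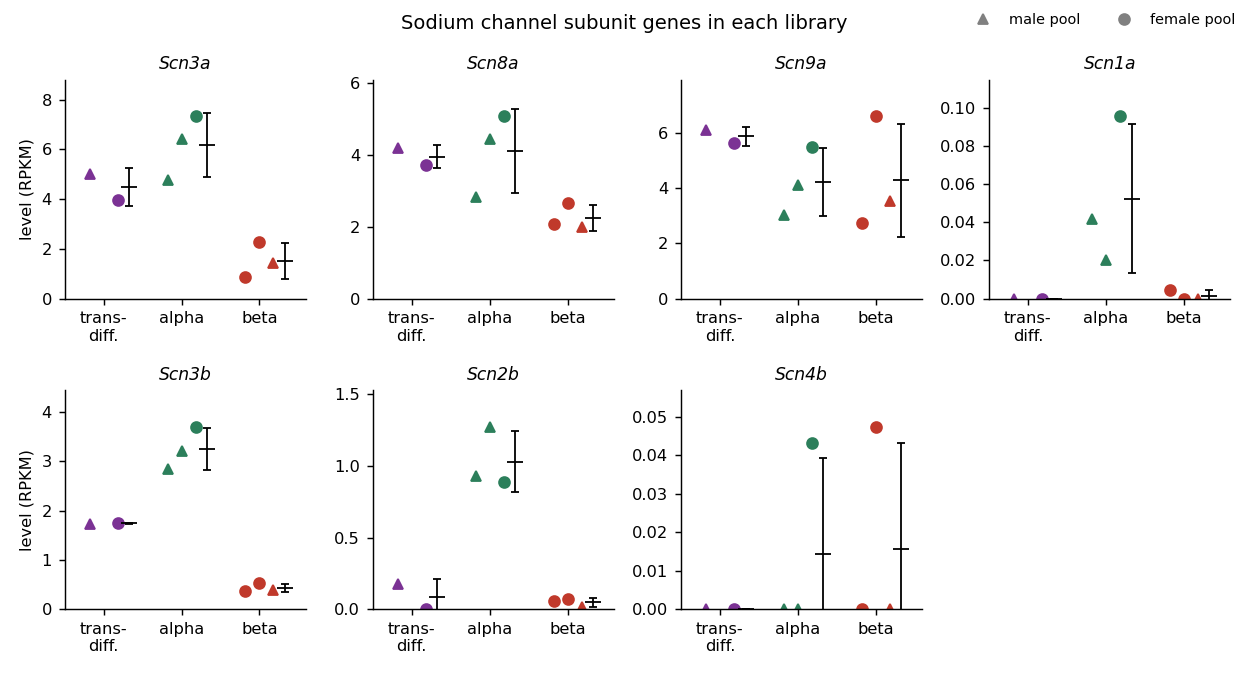
Level in RPKM (vertical axes, linear, each gene on its own scale) of the 7 subunit genes in the transdifferentiated, alpha and beta libraries; triangles are male pools, circles female pools, and bars the mean ± SD. Scn3a, Scn8a and Scn3b lie above the beta libraries in both other groups, Scn2b stands out in alpha cells alone, and for Scn9a the beta libraries overlap both other groups.

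Among the beta subunits, Scn3b gave the widest separation of the tested members. This subunit binds the pore subunit without a disulfide bond. Its level was 1.74 and 1.75 RPKM in transdifferentiated cells, 2.85, 3.21 and 3.70 RPKM in alpha cells and 0.377, 0.531 and 0.390 RPKM in beta cells. The 3 groups did not overlap, and the transdifferentiated libraries lay between the other two. The reads behind these values were 12 and 21 in transdifferentiated cells, 204 to 289 in alpha cells and 31 to 63 in beta cells, and the exact 95% counting intervals of the transdifferentiated values were 0.898 to 3.04 and 1.08 to 2.67 RPKM, of which the first reaches the lowest alpha library and the second does not. Scn3b passed the minimum for testing through its transdifferentiated and alpha libraries alone.

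Alpha cells had more Scn3b than beta cells by 2.05 (SE 0.17, adjusted p = 0.00014), a call kept in all 19 alternatives. Transdifferentiated cells had more than beta cells by 1.29 (SE 0.19, adjusted p = 0.0111). That call was kept with voom (log2 fold change 2.06, adjusted p = 0.0122) and lost in 2 alternatives, with only the libraries of the 2 groups (adjusted p = 0.0842) and without beta replicate 3 (0.0556). Transdifferentiated cells had less Scn3b than alpha cells (log2 fold change -0.76, SE 0.19, adjusted p = 0.0218), a call lost in 8 of 19 alternatives, with adjusted p-values up to 0.116, among them voom (-0.92, adjusted p = 0.0556), the block by sex and letter (-0.62, adjusted p = 0.103) and the fits without transdifferentiated replicate 2 (0.0604), alpha replicate 2 (0.0689) or alpha replicate 3 (0.116).

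**Figure D2:**
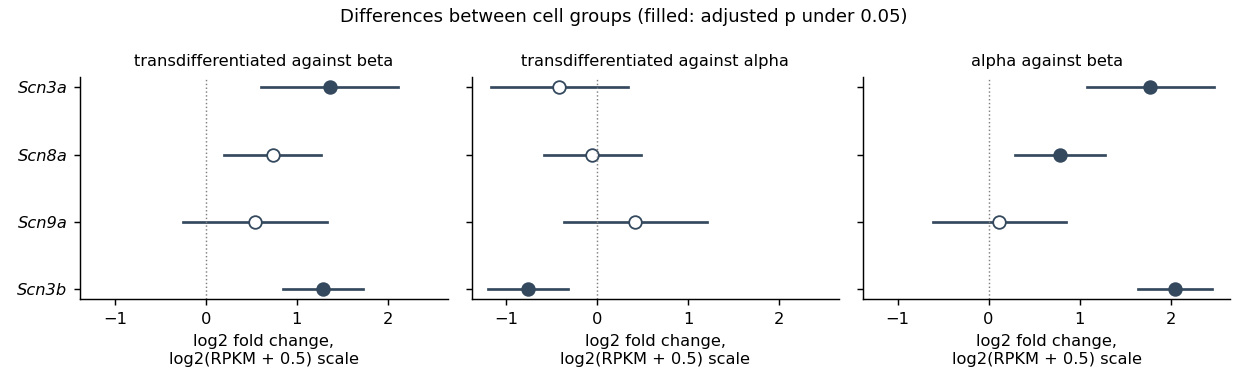
Log2 fold changes on the log2(RPKM + 0.5) scale with 95% intervals (horizontal axis) for the 4 tested members in the 3 comparisons; filled points have an adjusted p under 0.05. Scn3a and Scn3b are filled against beta cells in both panels, and Scn9a is open in all 3.

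Scn2b, a beta subunit that is joined to the pore subunit by a disulfide bond, was found mainly in alpha cells, at a low level. It had 0.176 and 0 RPKM in transdifferentiated cells (1 and 0 reads), 0.934, 1.27 and 0.886 RPKM in alpha cells (55, 78 and 57 reads) and 0.0587, 0.0717 and 0.0153 RPKM in beta cells (5, 7 and 1 reads). Each alpha library was above every other library. Over summed reads the rate in alpha cells was 19.7 times that in beta cells (exact 95% interval 11.2 to 37.6, counting error only). The rate in transdifferentiated cells was 0.0624 times that in alpha cells (0.00157 to 0.352), with 1 read where 16.0 would have been found at the alpha rate. Scn2b missed the minimum for testing, since 1 library alone reached 1 RPKM. In the limma fit with no filter, alpha cells were higher than beta cells by 1.43 (adjusted p = 0.00332). Transdifferentiated cells were lower than alpha cells there (-1.36, adjusted p = 0.00869) and differed from beta cells by 0.06 (SE 0.19, adjusted p = 0.932). The added 0.5 RPKM exceeded every transdifferentiated and beta value of Scn2b, which pulls this last difference toward 0. By summed reads the transdifferentiated rate was 1.23 times the beta rate (exact 95% interval 0.0289 to 8.16, counting error only). So wide an interval does not place transdifferentiated cells at the beta level. Scn4b, the other disulfide-linked subunit, had 0 reads in both transdifferentiated libraries, 0, 0 and 3 reads in alpha cells and 0, 5 and 0 reads in beta cells. The 0 reads of the transdifferentiated libraries allow a level of Scn4b of up to 0.488 and 0.280 RPKM (3 reads).

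Among the pore genes outside the list, Scn2a1 stayed at or under 0.326 RPKM everywhere, with 1 and 9 reads in transdifferentiated cells, 25 to 47 in alpha cells and 5 to 18 in beta cells.

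Set against all genes, Scn3a and Scn3b, of the 4 tested members, were called higher in transdifferentiated than in beta cells, where 9.10% of the 13172 tested genes were called higher and 2.90% lower. Against alpha cells Scn3b was called lower, where 6.67% of genes were called lower and 23.2% higher. Between alpha and beta cells Scn3a, Scn8a and Scn3b were called higher in alpha cells, where 16.9% of genes were called higher and 26.7% lower. The median log2 fold change of the 4 tested members was 1.01, -0.23 and 1.28 in these comparisons in the same order, beside 0.09, 0.17 and -0.05 over all genes. The comparisons share libraries, so their values are not independent. Median-ratio scaling moved the all-gene median by -0.15 and -0.22 in the comparisons of transdifferentiated with beta and with alpha cells, and the share of calls that were higher, 75.8% and 77.6%, became 47.3% and 49.7%. For alpha against beta cells this share was 38.8% and became 47.8%. The calls of Scn3a, Scn8a and Scn3b kept their direction and their side of the threshold under that scaling, but under quantile normalization the call of Scn3a between transdifferentiated and beta cells was lost (1.0, adjusted p = 0.0547). Long genes as a class also moved between libraries: over 884 tested genes of at least 10000 bases, the median deviation of the log2 level from the mean over all libraries was 0.20 and 0.06 for transdifferentiated cells, -0.14, 0.13 and 0.16 for alpha cells and -0.17, 0.01 and -0.24 for beta cells. The 4 pore genes are of this length, and a correction for gene length, added after the data were seen, left the calls of Scn3a, Scn8a and Scn3b in place.

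A ratio of 2 genes within a library is free of library scaling, and it separated the 3 populations. Scn3a divided by Scn9a was 0.824 and 0.703 in transdifferentiated cells, 1.58, 1.55 and 1.34 in alpha cells and 0.316, 0.348 and 0.409 in beta cells. In alpha cells Scn3a was the more abundant transcript, and in transdifferentiated and beta cells Scn9a was. The mean ratio was 0.764 ± 0.0857 in transdifferentiated cells (SD, n = 2), 1.49 ± 0.133 in alpha cells and 0.358 ± 0.0473 in beta cells (SD, n = 3 each), with the transdifferentiated libraries between the others and no overlap. Each of the 3 comparisons gave an exact permutation p of 0.1 (two-sided, adjusted 0.1), the smallest that groups of this size allow. The test could thus not pass 0.05 and adds nothing to the absence of overlap. The ratio also sets the tested pore gene with the widest alpha to beta difference in these same libraries over one without a called difference. The log2 differences were 1.1 for transdifferentiated against beta, -0.96 for transdifferentiated against alpha and 2.06 for alpha against beta cells.

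The make-up of the pore-subunit RNA rests on the same RPKM values as this ratio, so its ordering is not a separate result. Scn3a took 32.9% and 29.8% of the summed pore RPKM in transdifferentiated cells, 40.8% to 44.8% in alpha cells and 15.2% to 20.7% in beta cells. Scn9a took 39.9% and 42.3% in transdifferentiated cells, 27.5% to 30.5% in alpha cells and 48.1% to 57.1% in beta cells. The share of Scn8a overlapped among the groups, at 27.3% and 27.9% in transdifferentiated cells, 26.4% to 29.6% in alpha cells and 23.1% to 36.7% in beta cells. The summed level of the 4 pore genes was 15.3 and 13.3 RPKM in transdifferentiated cells, 10.7, 15.0 and 18 RPKM in alpha cells and 5.69, 11.6 and 6.95 RPKM in beta cells, so that both transdifferentiated libraries lay within the alpha range and above every beta library.

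**Figure D3:**
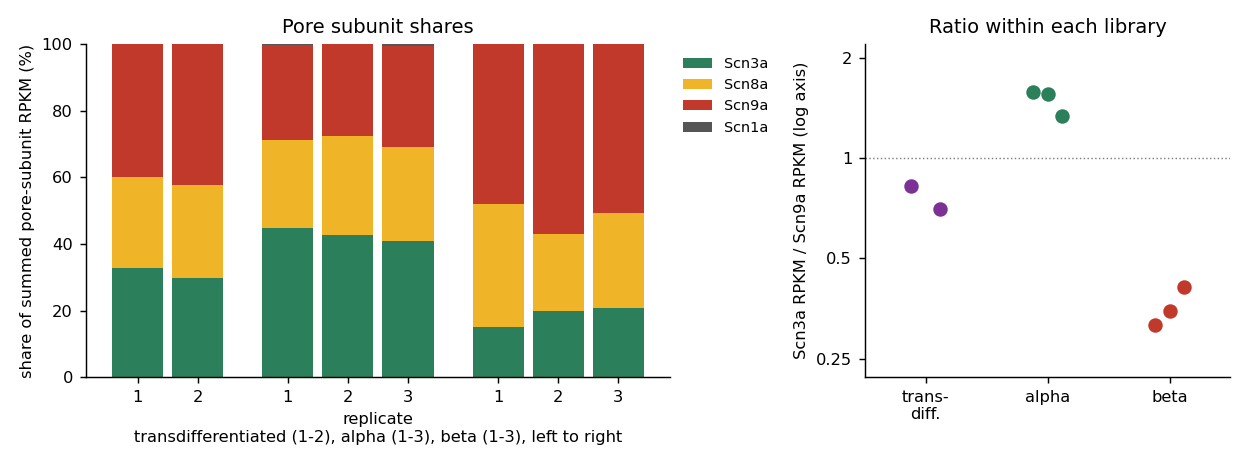
Left, share of each pore gene in the summed pore-subunit RPKM of every library (percent); right, Scn3a RPKM divided by Scn9a RPKM in each library on a log axis. The ratio is 0.703 and 0.824 in the transdifferentiated libraries, between the alpha libraries (1.34 to 1.58) and the beta libraries (0.316 to 0.409).

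The place of the transdifferentiated libraries between the beta mean (0%) and the alpha mean (100%) differed among the subunits and from that of the alpha markers. On linear RPKM, replicates 1 and 2 stood at 104% and 78.9% for Scn8a, 75.3% and 52.3% for Scn3a, 46.3% and 46.6% for Scn3b and 13.0% and -4.94% for Scn2b. The alpha marker genes stood lower than the first 3: Gcg, the glucagon gene, at 10.3% and 10.2%, Irx1 at 12.0% and 17%, Irx2 at 30.1% and 35.7% and Ttr at 11.4% and 14.3%. For Scn8a and Scn3a both libraries were above the place of every one of these 4 markers in either library, and so they were for Scn3b, while Scn2b lay among or below them.

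**Figure D4:**
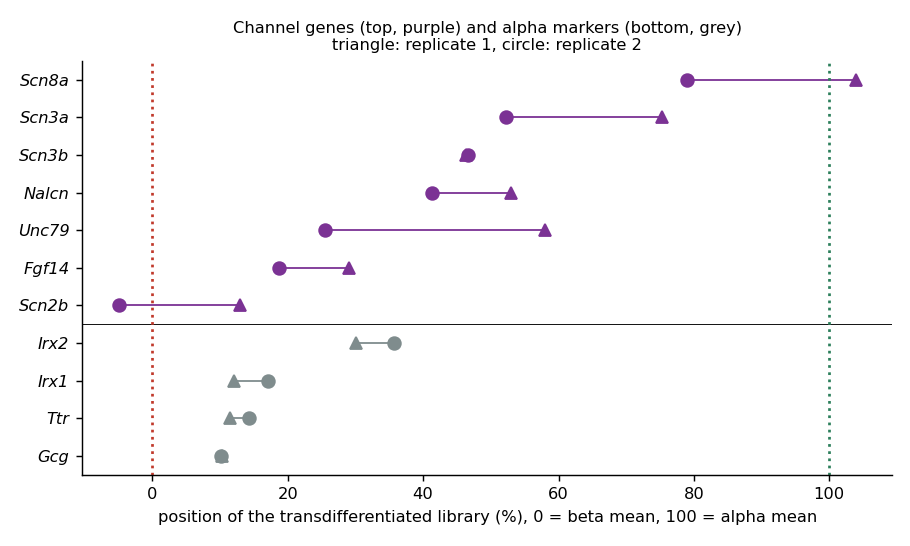
Place of each transdifferentiated library between the beta mean (0%) and the alpha mean (100%) on linear RPKM (horizontal axis), for channel genes in purple and alpha markers in grey; triangles are replicate 1 and circles replicate 2. Scn8a, Scn3a and Scn3b lie at 46.3% or more in both libraries, and the markers at 35.7% or less. The Scn2b points rest on 1 and 0 reads.

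Summed markers of delta cells and of PP and epsilon cells were higher in every transdifferentiated and alpha library than in any beta library. The sums for neuron, endothelial, stromal, immune and exocrine markers were not. The summed RPKM of 4 delta cell markers was 2967 to 3096 in transdifferentiated cells, 1371 to 3197 in alpha cells and 312 to 891 in beta cells, and that of 3 markers of PP and epsilon cells was 8249 to 11439, 7961 to 13025 and 590 to 1274 in the same order. The part of these cells in the levels of Scn3a, Scn8a and Scn3b was not tested. For 10 markers of neurons and Schwann cells, which are rich in sodium channels, the sums were 22.7 to 23.1 RPKM in transdifferentiated cells, 9.11 to 11 in alpha cells and 15.4 to 25.2 in beta cells. Among them Sox10, S100b, Ngfr, Foxd3 and Prph were listed at 0 in both transdifferentiated libraries, Sox10 at 0 in all alpha libraries and Foxd3 at 0 in all beta libraries. The sums for 5 endothelial markers were 5.03 to 10.7, 4.47 to 6.68 and 2.99 to 4.81 RPKM in transdifferentiated, alpha and beta cells, and for 5 stromal markers 0.364 to 1.85, 0.958 to 1.46 and 0.262 to 0.563 RPKM. For 6 immune markers the sums were 19.3 to 29.0, 9.12 to 26.7 and 81.0 to 92.8 RPKM, highest in beta cells, and for 7 markers of acinar and duct cells they overlapped, at 63.7 to 181, 9.72 to 526 and 24.4 to 546 RPKM. The stromal marker Acta2 was listed at 0 in all transdifferentiated and beta libraries, the immune marker Ptprc in both transdifferentiated libraries and the acinar marker Prss1 in all alpha libraries.

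Of 22 genes whose proteins bind or regulate sodium channels, 19 were tested. Transdifferentiated cells had 3 of them higher and 1 lower than beta cells, and 5 higher and 4 lower than alpha cells; alpha cells had 6 higher and 4 lower than beta cells. The median log2 fold changes of the list were 0.21, 0.08 and 0.12, beside 0.09, 0.17 and -0.05 over all genes. Over all genes 9.10% were called higher and 2.90% lower in the first comparison, 23.2% and 6.67% in the second, and 16.9% and 26.7% in the third. Fgf14, an intracellular relative of the fibroblast growth factors that binds the tail of the pore subunit, was at 0.811 ± 0.211 RPKM in transdifferentiated cells (SD, n = 2), 2.99 ± 0.162 RPKM in alpha cells and 0.125 ± 0.0578 RPKM in beta cells (SD, n = 3 each). Fgf14 passed the minimum for testing through its alpha libraries alone, and its transdifferentiated values rest on 5 and 6 reads. It was higher in alpha than in beta cells by 2.44 (4.55 with voom) and lower in transdifferentiated than in alpha cells with -1.40 (adjusted p = 0.000138 and 0.00403), calls kept in all 19 alternatives. The difference of 1.04 between transdifferentiated and beta cells (adjusted p = 0.0297; 2.77 with voom) was lost in 10 of 19, with adjusted p-values of 0.0179 to 0.120. Its relative Fgf12 was higher than in beta cells both in transdifferentiated cells (0.82, adjusted p = 0.00641, lost with only the libraries of the 2 groups at 0.0802) and in alpha cells (0.53, adjusted p = 0.00366). Fgf11 was higher in alpha than in beta cells by 2.2 (adjusted p = 0.0258, lost in 5 of 19 alternatives). Fgf11 passed the minimum for testing through its alpha libraries and transdifferentiated replicate 2 alone, with beta libraries at 0.230 to 0.389 RPKM.

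Other partners ran the opposite way. Cntn1, contactin, a cell adhesion protein that raises channel density at the surface, was at 7.82 ± 0.138 RPKM in transdifferentiated cells (SD, n = 2), 0.682 ± 0.0905 RPKM in alpha cells and 9.47 ± 1.83 RPKM in beta cells (SD, n = 3 each). Cntn1 passed the minimum for testing through its transdifferentiated and beta libraries alone. Transdifferentiated cells were higher than alpha cells by 2.81 (adjusted p = 9.14e-05), and alpha cells were lower than beta cells (-3.04, adjusted p = 1.87e-05). S100a10, which carries some sodium channels to the membrane in sensory neurons, was likewise higher in transdifferentiated than in alpha cells by 2.10 and lower in alpha than in beta cells (-2.31). Ank2, an ankyrin, a family of anchors for membrane proteins, gave 0.93 and -0.98 in the same comparisons, the first lost in 2 of 19 alternatives. None of these 3 differed beyond the threshold between transdifferentiated and beta cells (log2 fold changes -0.23, -0.21 and -0.05).

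Sptbn4, the spectrin of axon initial segments, was higher in transdifferentiated cells than in alpha cells (0.71, adjusted p = 0.00592, kept in every alternative run) and than in beta cells (0.55, adjusted p = 0.0333, lost in 12 of 20 alternatives). Nrcam, a cell adhesion protein of nodes, was lower in transdifferentiated cells than in beta (-0.84) and alpha cells (-0.82), and these calls were lost in 11 and 7 of 19 alternatives. Camk2d, a calmodulin-dependent kinase that phosphorylates the heart's sodium channel, was higher in alpha than in beta cells by 1.07 and lower in transdifferentiated than in alpha cells (-0.80, lost in 7 of 19 alternatives). Calm2, a calmodulin gene, gave 0.46 and -0.47 in the same comparisons, Gpd1l gave -0.59 and 0.39 (the second lost in 14 of 19 alternatives), and Nfasc, a neurofascin, gave 0.72 for alpha against beta cells (lost in 5 of 20). Ank3, Nedd4, Fyn, Calm3 and Dpysl2 passed in no comparison.

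The sodium leak channel carries a steady inward current, and alpha cells exceeded beta cells in 2 of its 4 listed genes. Its pore gene Nalcn was at 9.45 ± 0.529 RPKM in transdifferentiated cells (SD, n = 2), 12.8 ± 1.01 RPKM in alpha cells and 6.45 ± 0.834 RPKM in beta cells (SD, n = 3 each). It was higher in alpha than in beta cells by 0.98 (adjusted p = 0.000608). In transdifferentiated cells it was higher than in beta cells by 0.54 (adjusted p = 0.0353) and lower than in alpha cells with -0.44 (adjusted p = 0.0356). These calls were lost in 11 of 19 alternatives (adjusted p = 0.0316 to 0.148) and in 10 of 19 (adjusted p = 0.00383 to 0.143). Unc79, a large accessory protein of the channel, was higher in alpha than in beta cells by 1.28 (adjusted p = 0.0011) and lower in transdifferentiated than in alpha cells (-0.62, adjusted p = 0.0423, lost in 10 of 19 alternatives). Unc80 and Fam155a, the other accessory subunits, passed in no comparison. Of these 4 genes, 1 was higher and 0 lower in transdifferentiated than in beta cells, 0 higher and 2 lower than in alpha cells, and 2 higher and 0 lower in alpha than in beta cells, with medians of 0.51, -0.25 and 0.65, beside 9.10%, 6.67% and 16.9% of all genes called in those directions.

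Several genes of sodium export had less RNA in alpha cells than in beta cells. Of 11 subunits of the sodium pump and sodium/calcium exchangers, 7 were tested, and 5 were lower and 0 higher in alpha than in beta cells (median -0.46), where 26.7% of all genes were lower and 16.9% higher. Transdifferentiated cells had 3 higher and 0 lower than alpha cells (median 0.46), where 23.2% of all genes were higher and 6.67% lower. Against beta cells 0 were higher and 0 lower (median -0.07), where 9.10% of all genes were higher and 2.90% lower. Atp1b1, the common beta subunit of the pump, was at 93.2 ± 7.27 RPKM in transdifferentiated cells (SD, n = 2), 39.3 ± 0.704 RPKM in alpha cells and 102 ± 5.68 RPKM in beta cells (SD, n = 3 each). It was higher in transdifferentiated than in alpha cells by 1.23 (adjusted p = 0.000206) and lower in alpha than in beta cells (-1.36, adjusted p = 3.79e-05). Atp1b2 gave 2.22 and -2.09 in these comparisons, and Slc8a1, an exchanger that trades sodium for calcium, 0.60 (lost in 12 of 20 alternatives) and -0.69. Atp1b2 passed the minimum for testing through its transdifferentiated and beta libraries alone, with alpha libraries at 0.469 to 0.588 RPKM. For Atp1b3, another beta subunit of the pump, the difference of alpha from beta cells was smaller (-0.46, adjusted p = 0.0296) and was lost in 10 of 20 alternatives (-0.51 to -0.12, adjusted p = 0.0021 to 0.491).

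**Figure D5:**
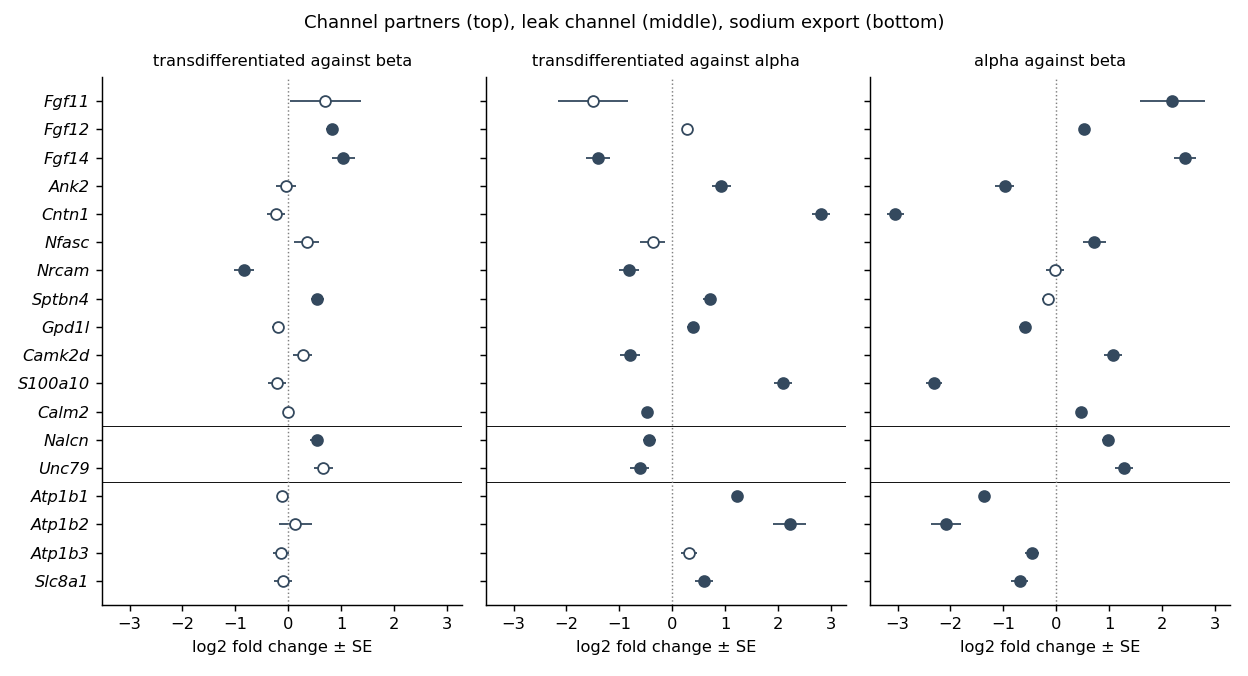
Log2 fold changes ± SE on the log2(RPKM + 0.5) scale (horizontal axes) in the 3 comparisons for partner, leak channel and sodium export genes, each called in at least 1 of them; filled points have an adjusted p under 0.05. Cntn1 and S100a10 lie near 0 against beta cells and at 2.81 and 2.10 against alpha cells, while Fgf14 is at 2.44 in alpha against beta cells.

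Sex did not separate the members. Male against female pools gave log2 fold changes of -0.06 for Scn3a, -0.20 for Scn8a, -0.27 for Scn9a and -0.13 for Scn3b, and no member passed, where 0.0456% of all tested genes did. Whether the difference of alpha from beta cells itself differed between the sexes was tested with 1 library in some combinations. No member and no gene of 13172 passed in limma (0% called; 201 genes at an unadjusted p under 0.05) and none with voom (119 genes at an unadjusted p under 0.05). Within male pools alpha cells exceeded beta cells by 1.64 for Scn3a, 0.70 for Scn8a and 1.99 for Scn3b, and within female pools by 2.0, 0.96 and 2.14. Titles with and without the letter b, which the labels do not explain, split the alpha and beta libraries but not the transdifferentiated ones, which all lack it. The differences of alpha from beta cells were 1.95 without and 1.66 with the letter for Scn3a, 0.36 and 0.90 for Scn8a, 0.13 and -0.02 for Scn9a, and 1.93 and 2.04 for Scn3b. Among libraries without the letter, transdifferentiated cells differed from beta cells by 1.86 for Scn3a, 0.78 for Scn8a, 0.98 for Scn9a and 1.35 for Scn3b, and from alpha cells by -0.09, 0.42, 0.85 and -0.58 in the same order of genes.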

How the data were processed

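RNA of 8 libraries from pools of sorted mouse islet cells was analysed from the table of RPKM values that the authors deposited. The tools named in the submitters' processing notes are edgeR 3.14.0, featureCounts and STAR 2.5, with GRCm38.p4 as the build and no annotation named. The library kit in the labels' protocols, TruSeq RNA v2, keeps no strand information. Of the table's entries, 4 with a repeated name were left out, and no other value column exists.

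From there, log2(RPKM + 0.5) was fitted with limma 3.58.1 (eBayes with a trend, R 4.3.3) over 13172 genes with at least 1 RPKM in at least 2 libraries, in a single fit of all libraries with group and sex as terms. A gene was called at an adjusted p under 0.05 (Benjamini-Hochberg over all tested genes). Fold changes on this scale understate the change of low genes. The fit treats all libraries as equally precise, so values from limma voom on recovered reads stand beside calls of members that it changes. Voom weights by depth and works on log2 counts per library size. Among the partner, leak channel and export genes, voom also lost calls of transdifferentiated cells. These were Nrcam against both other groups, Nalcn against beta cells, and Gpd1l and Slc8a1 against alpha cells. A second fit on means of group and sex gave the interaction. The fit of all libraries was tested on simulated reads, where it recovered most changed genes and also called some unchanged ones between the shallow transdifferentiated and the beta libraries. Within-library ratios were compared by exact permutation.

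Whole reads were recovered from the RPKM steps for 26786 expressed genes, within 0.01 of a read: 78.5% of the 25349 genes matched by symbol to GENCODE M21 came out whole with the annotated exon length, and the length of 6879 genes was solved from their own steps. Recovered reads summed to between 1244227 and 21395280 per library. Their sums matched the library size that the steps imply (ratio 1.00), so the RPKM were scaled by reads assigned to genes. Intervals of rates are exact, at 95%, and cover counting error only. Every pair of libraries of a group differed by more than counting noise (chi-square per degree of freedom of 3.30 and above). Nothing says that libraries came from separate pools where titles share a number, so p-values measure the spread between these libraries, which may be technical.

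The members and gene lists were chosen with earlier results of these data known. Every member is named; of other lists, those called in at least 1 comparison, and any other Scn gene. Some genes and sequences that these rules would name are not reported here. The genes most like Scn9a were the 5 with the highest Pearson correlation. Alternatives were other pseudocounts, blocks, filters, scalings, terms and libraries left out.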

Additional observations from a re-analysis of the deposited data

How the results depend on the processing

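Alternatives for a member numbered 19, since the filter on a mean of 10 RPKM left none of them tested. Across these, the calls of Scn3a (log2 fold change 1.54 to 2.15) and Scn3b (1.6 to 2.99) for alpha against beta cells were kept. For transdifferentiated against beta cells 1580 genes and 2 members were called. These numbers were 877 and 1 with no filter on low values and 769 and 1 with voom. With only the libraries of the 2 groups they were 0 and 0 (3337 genes at an unadjusted p under 0.05). With quantile normalization they were 1143 and 1. With the sets of sex and title letter as a block, chosen after seeing the data, they were 1943 and 4. They ranged from 235 to 1737 genes and 0 to 2 members when 1 library was left out: 751 genes without transdifferentiated replicate 1, 856 and 958 without alpha replicates 2 and 3, and 503, 791 and 235 without beta replicates 1, 2 and 3. For transdifferentiated against alpha cells 3932 genes and 1 member were called. These were 2553 and 0 with voom, 2267 and 0 with only the 2 groups, 2433 (without alpha replicate 3) to 3820 genes and 0 to 1 members with 1 library left out, and 0 members with the letter b as a term. For alpha against beta cells 5743 genes were called, and 3110 (without alpha replicate 3) to 6645 genes and 2 to 3 members with 1 library left out, with 3421 genes without beta replicate 3. At a mean of at least 10 RPKM no member was tested, and 485, 2002 and 2738 genes were called in these comparisons in the same order. Between sexes 6 genes were called, 1 at that mean and 2 (without beta replicate 3) to 6 with 1 library left out. For the interaction 0 genes were called, but 668 with no filter. The cause of these shifts was not tested beyond the number of genes or libraries each setting leaves. Differences that turned direction were never called: Scn8a between transdifferentiated and alpha cells (0.21 with the letter b term, 0.22 with the sets as a block, -0.31 to 0.17 with 1 library left out), Scn3a between the same cells (0.059 with the sets as a block) and Scn9a between alpha and beta cells (-0.028 with the length correction, -0.013 with the sets as a block, -0.14 to 0.37 with 1 library left out). No paired analysis was possible because replicate numbers were given in accession order and pair no libraries; the labels do not say that libraries of a set by sex and letter were prepared together. With a few reads per library, the levels of Scn1a, Scn4b and, in transdifferentiated cells, Scn2b and Scn3b are limited by depth.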

Other observations

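Scn4a, the pore subunit of skeletal muscle, had 1 read in transdifferentiated replicate 1 (0.114 RPKM) and 17 reads in replicate 2 (1.11 RPKM). It had 4 to 6 reads in the alpha libraries (0.0440 to 0.0604 RPKM) and 9 to 13 reads in the beta libraries (0.0597 to 0.0990 RPKM), although these were deeper. The transdifferentiated replicates thus differed from each other, and no test was made of a gene at 1 RPKM in a single library. Scn7a, a relative of the channels that senses sodium, had 0 reads in both transdifferentiated libraries, 1 to 4 reads in alpha cells and 0 to 1 reads in beta cells.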
